A study of Homo sapiens with 12 samples.

Results

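Cholesterol synthesis and its control by the sterol regulatory element-binding proteins (SREBPs) were followed through 30 genes in human osteosarcoma cells. The members are the enzymes that carry acetyl-CoA to cholesterol, the SREBPs and the proteins that hold or release them, 2 sterol transport genes and 4 enzymes of fatty acid synthesis. Each gene was read from the probe set annotated with its symbol alone, taking the one with the highest mean over all arrays where there were several. This gave 28 of the 30 genes, among 18417 genes that the platform measures alone. FDFT1 (squalene synthase) had no probe set under its symbol alone, and HSD17B7 (a sterol ketoreductase) had only 1, shared with HSD17B7P2. That shared probe set averaged 8.46 log2 and was not called in any comparison.

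RNA of U2OS-ER-alpha cells, an osteosarcoma line that carries estrogen receptor α, was hybridised to 12 Affymetrix arrays (Human Gene 1.0 ST). The first of the 4 groups, with 3 arrays each, received an siRNA pool against SRC-1, a coactivator of nuclear receptors whose gene is NCOA1, and 17-B-estradiol. The second received the SRC-1 pool and ethanol vehicle, the third a non-targeting pool and estradiol, and the fourth the non-targeting pool and vehicle. All groups shared 50 nM siRNA, lipid transfection, phenol red free medium with charcoal-stripped serum and 3 h of treatment. The labels do not say whether the line is 1 clone or what drives the receptor, nor how the biological replicates were kept separate, so p-values measure the spread among these arrays only.

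Cells sense sterols in the membrane of the endoplasmic reticulum. When sterols are low, SCAP escorts the SREBPs to the Golgi, where proteases release the part that enters the nucleus and switches on genes of sterol and fatty acid synthesis. When sterols are high, INSIG1 and INSIG2 hold SCAP and the SREBPs back, and INSIG1 is itself a transcriptional target of the SREBPs. The nuclear SREBPs act together with NF-Y, which binds CCAAT boxes, and with Sp1, which binds GC boxes.

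The promoters of 5 members are shown: the 4 whose transcripts estradiol changed with non-targeting siRNA, and SREBF2, which encodes an SREBP. Each is the 250 bases before an annotated start, 5′ to 3′ on the gene's strand, from RefSeq for GRCh38.p14. The windows of HMGCS1, INSIG1, LBR and SREBF2 adjoin the spans of their genes. For ELOVL6 the window lies inside the gene's annotated span, 110045846 to 110199202, and not before its outermost start. Capitals mark a CCAAT box (read here as ATTGG, its reverse complement) and, in SREBF2, also the sterol regulatory element. The positions are chr5:43313413-43313662 (minus strand) for HMGCS1, chr7:155297628-155297877 (plus) for INSIG1, chr1:225428822-225429071 (minus) for LBR, chr4:110198616-110198865 (minus) for ELOVL6 and chr22:41832855-41833104 (plus) for SREBF2.
HMGCS1: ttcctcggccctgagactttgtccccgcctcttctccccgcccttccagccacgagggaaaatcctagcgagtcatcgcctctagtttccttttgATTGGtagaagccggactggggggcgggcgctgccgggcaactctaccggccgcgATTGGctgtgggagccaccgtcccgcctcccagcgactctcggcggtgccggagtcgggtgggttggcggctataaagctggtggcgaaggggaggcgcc
INSIG1: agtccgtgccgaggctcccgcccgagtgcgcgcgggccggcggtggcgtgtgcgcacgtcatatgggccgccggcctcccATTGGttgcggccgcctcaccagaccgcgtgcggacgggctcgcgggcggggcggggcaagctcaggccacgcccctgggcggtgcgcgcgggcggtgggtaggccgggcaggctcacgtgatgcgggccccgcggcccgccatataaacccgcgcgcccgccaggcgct
LBR: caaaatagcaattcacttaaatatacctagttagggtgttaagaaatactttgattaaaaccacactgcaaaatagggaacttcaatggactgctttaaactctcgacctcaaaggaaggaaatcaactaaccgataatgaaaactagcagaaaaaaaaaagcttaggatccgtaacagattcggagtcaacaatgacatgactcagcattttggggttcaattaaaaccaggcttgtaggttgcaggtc
ELOVL6: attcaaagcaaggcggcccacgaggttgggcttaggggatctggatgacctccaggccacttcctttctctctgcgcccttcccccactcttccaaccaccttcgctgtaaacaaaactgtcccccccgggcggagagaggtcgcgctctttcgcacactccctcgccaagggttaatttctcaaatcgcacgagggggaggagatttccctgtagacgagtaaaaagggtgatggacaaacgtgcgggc
SREBF2: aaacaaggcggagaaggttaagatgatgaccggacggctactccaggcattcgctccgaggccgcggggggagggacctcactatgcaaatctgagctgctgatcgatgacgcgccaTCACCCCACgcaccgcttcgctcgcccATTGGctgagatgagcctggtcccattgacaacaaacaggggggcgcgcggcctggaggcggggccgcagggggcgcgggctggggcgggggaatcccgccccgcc

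A promoter was found for 26 of the 30 members. A CCAAT box (CCAAT, either strand) lay in 17 of these 26 (65.4%), against 32% of all 35116 promoters in the same window. The GC box GGGCGG, searched on both strands, lay in 24 of 26 (92.3%), against 42.6% of all promoters and 53.7% of those of protein-coding genes. The sterol regulatory element, searched only as the letters TCACNCCAC on either strand, was found in SREBF2 alone (3.85%), against 0.883% of all promoters. Other forms of this element, and sites outside these windows, were not searched. A promoter without a match is therefore not shown to lack sites for the SREBPs. The palindromic consensus estrogen response element, with 3 free bases between its arms, was in 0 of 26 promoters, against 0.0399% of all. Of the 4 changed genes, HMGCS1 and INSIG1 held both a CCAAT box and a GC box, and LBR neither. ELOVL6 held a GC box only, in a window that does not precede its outermost start. The letters of these motifs do not contain each other, and a match is a description of sequence and not of binding.

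The deposited values are log2 signals per probe set, and they rank arrays for 1 probe set but not 1 probe set against another. Array medians lay between 6.858 and 6.901. A difference counted as called when limma's p was under 0.01 before adjustment and under 0.05 after Benjamini-Hochberg adjustment over 29094 probe sets, as the study's design text sets it. All 28 measured members averaged above the median of tested values, 6.89 log2. Such places on the scale, here and for the markers, describe signal and do not rank RNA amounts between genes. Of the bone-lineage markers, SPARC averaged 12.5, and 7 of 8 measured were above the lower quartile of 5.20, while IBSP was below it at 4.93. The mean of the 8 per array was 7.93 to 8.0 with SRC-1 siRNA and estradiol, 8.03 to 8.07 with SRC-1 siRNA and vehicle, 8.05 to 8.16 with non-targeting siRNA and estradiol and 8.14 to 8.22 with non-targeting siRNA and vehicle. SPP1 averaged 8.90 with SRC-1 siRNA and estradiol and 9.13 with SRC-1 siRNA and vehicle, against 9.77 with non-targeting siRNA and estradiol and 9.84 with non-targeting siRNA and vehicle. ALPL was also lower with SRC-1 siRNA, whereas RUNX2 was not and SPARC stayed between 12.51 and 12.58 in all group means. In bulk RNA, fewer cells of a type and less RNA per cell cannot be told apart. Below the lower quartile lay 2 of 5 hepatocyte markers, 1 of 4 adipocyte, 0 of 4 epithelial, 1 of 3 blood and 1 of 3 endothelial markers. The low ones were ALB, APOB, FABP4, PTPRC and PECAM1, and the highest were KRT18, KRT8, CD68 and SERPINA1. SERPINA1 averaged 9.84 with SRC-1 siRNA and estradiol and 9.50 with SRC-1 siRNA and vehicle, and 10.15 with non-targeting siRNA and estradiol and 9.76 with non-targeting siRNA and vehicle. The 4 adipocyte markers, which matter beside lipid genes, averaged 5.69 to 5.76 on the estradiol arrays and 5.74 to 5.91 on the vehicle arrays; the part of these markers in the results was not tested.

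NCOA1 (probe set 8040552) checked the knockdown. It read 6.18, 5.62 and 5.78 log2 with SRC-1 siRNA under vehicle, against 8.81, 8.72 and 8.83 with non-targeting siRNA. Under estradiol it read 6.79, 6.88 and 6.92 with SRC-1 siRNA, against 9.15, 9.06 and 9.02. The SRC-1 siRNA arrays thus stood apart under both treatments, but NCOA1 was 2.00-fold higher on those with estradiol than on those with vehicle (adjusted p = 0.00029 in limma). Depletion was 4.64-fold under estradiol (adjusted p = 7.92e-06 in limma) and 7.60-fold under vehicle (adjusted p = 7.3e-07). The comparisons below that involve both siRNAs under estradiol therefore rest on a smaller depletion than those under vehicle.

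One measure, from probe sets left out of the tests, moved with treatment and, under estradiol, with the siRNA. These probe sets were taken as controls from their identifiers alone, and what their signal reflects was not tested. The 4203 probe sets taken as controls, which entered no test, had a mean deviation from their average of 0.094 to 0.178 log2 with SRC-1 siRNA and estradiol, and of -0.159 to -0.024 with SRC-1 siRNA and vehicle. With non-targeting siRNA it was -0.003 to 0.068 under estradiol and -0.123 to -0.039 under vehicle. The treatments did not overlap in this measure, nor did the siRNAs under estradiol, while the siRNAs overlapped under vehicle. With it as a covariate 0 members were called in either estradiol comparison, at larger standard errors. The differences with non-targeting siRNA were then -0.32 ± 0.07 log2 for HMGCS1 (-0.27 ± 0.05 without the covariate), -0.34 ± 0.09 for INSIG1 (-0.30 ± 0.07), -0.19 ± 0.07 for LBR (-0.24 ± 0.05) and 0.31 ± 0.09 for ELOVL6 (0.36 ± 0.06). With SRC-1 siRNA they were 0.24 ± 0.14 for ELOVL6 (0.35 ± 0.06) and 0.19 ± 0.12 for LSS (0.25 ± 0.05). These 6 differences kept their direction. Those of HMGCS1 and INSIG1 grew in size and the others shrank, and the errors were larger in each case. The reason for the lost calls was not tested. For SRC-1 siRNA under estradiol the covariate also left 0 called members. The differences were then 0.20 ± 0.08 for MSMO1 (0.30 ± 0.07 without it), 0.24 ± 0.08 for LSS (0.27 ± 0.05) and -0.27 ± 0.06 for NPC1 (-0.26 ± 0.05).

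**Figure D1:**
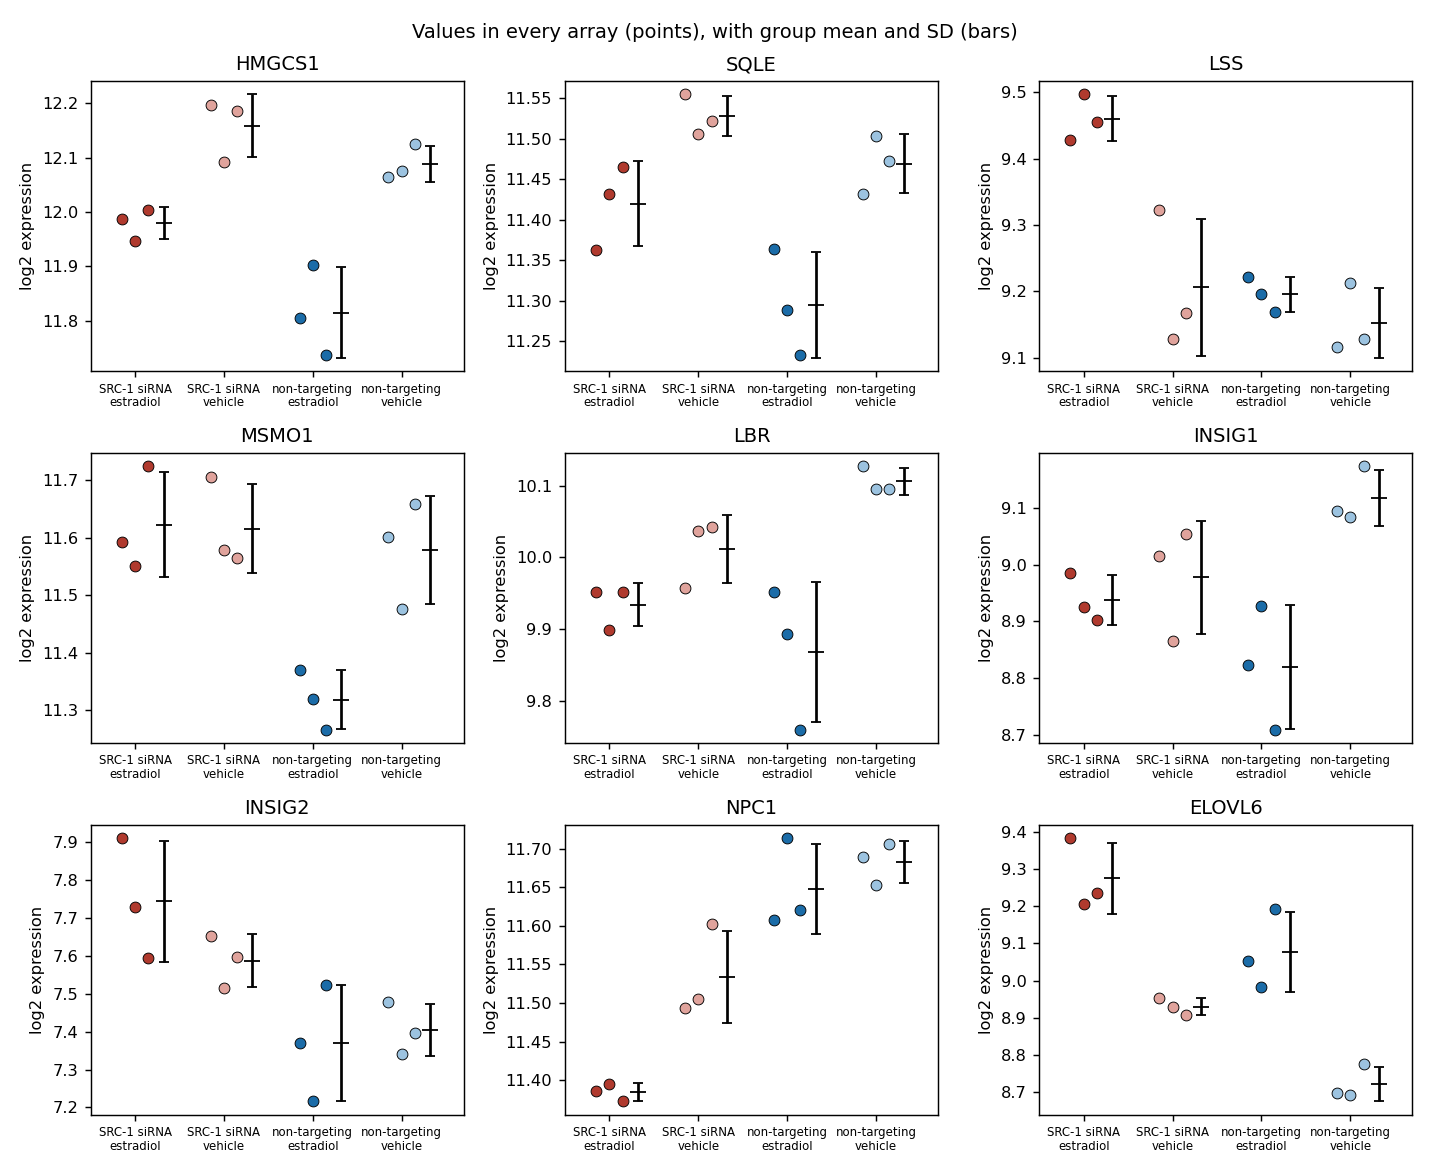
Log2 signal of 9 members on each of the 12 arrays (points), by group, with group means and SD (bars; n = 3 each). HMGCS1 lies between 11.74 and 11.90 on the 3 arrays with non-targeting siRNA and estradiol, below all 9 others.

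Estradiol with non-targeting siRNA asks how the intact cells respond to hormone. HMGCS1, which makes HMG-CoA, INSIG1 and LBR, which has sterol reductase activity, fell by about 1.2-fold, and ELOVL6, which elongates long-chain fatty acids, rose 1.28-fold. These were 4 of 28 members (14.3%), while 2.73% of all tested probe sets were called. The 3 that fell compare with 0.873% called lower, and the 1 that rose with 1.85% called higher. All members lie above the median signal, which many tested probe sets do not. With the lowest 40% of probe sets left out, 6 members were called, against 6.24% of the probe sets kept. In all, 23 of 28 members had a difference below 0, against 54.5% of all probe sets, and the members' median was -0.06 log2 against -0.01 for all.

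HMGCS1 (probe set 8111941) read 11.80, 11.90 and 11.74 log2 with estradiol and 12.06, 12.08 and 12.13 with vehicle. All 3 estradiol arrays lay below all 3 vehicle arrays. The difference was -0.27 ± 0.05 log2 (SE), a 1.21-fold decrease (adjusted p = 0.0136 in limma). It was not called without estradiol replicate 1 (adjusted p = 0.0522), estradiol replicate 3 (0.0629) or vehicle replicate 3 (0.0672), with the difference between -0.27 and -0.24, nor in a fit of the 6 compared arrays alone (0.0716).

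The other enzymes before squalene were not called. All 7 measured enzymes of this segment had a difference below 0, from -0.27 to -0.03, with a median of -0.09. MVK (mevalonate kinase) averaged 8.18 ± 0.02 log2 with estradiol and 8.31 ± 0.02 with vehicle (SD, n = 3 each), without overlap, and its adjusted p was 0.354 in limma. MVD, which makes isopentenyl diphosphate, averaged 9.37 ± 0.12 with estradiol and 9.50 ± 0.04 with vehicle. ACAT2, a thiolase, averaged 9.16 ± 0.08 with estradiol and 9.25 ± 0.07 with vehicle. PMVK, IDI1 and FDPS, which make and join the isoprenoid units, differed by -0.05, -0.03 and -0.04.

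Among the sterol-forming enzymes, LBR (probe set 7924603) read 9.95, 9.89 and 9.76 with estradiol and 10.13, 10.10 and 10.09 with vehicle. The groups did not overlap, and the difference was -0.24 ± 0.05 log2 (adjusted p = 0.0336 in limma). LBR is also a protein of the inner nuclear membrane that binds lamin B. Its call held without estradiol replicate 1, and without the SRC-1 siRNA arrays vehicle 1, vehicle 2 or estradiol 2, and in none of the other 8 fits that left out 1 array (adjusted p up to 0.118). It also ended with median centring (0.0683).

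MSMO1, the sterol C4-methyl oxidase, came close to the threshold. Its probe set 8098195 read 11.37, 11.32 and 11.27 with estradiol and 11.60, 11.48 and 11.66 with vehicle, again without overlap. The difference was -0.26 with an adjusted p of 0.0663, and it was called without vehicle replicate 2 (-0.31, adjusted p = 0.0475 in limma). SQLE, the squalene epoxidase, differed by -0.17 (adjusted p = 0.0922), SC5D, which acts late in the pathway, by -0.17 (0.262), and CYP51A1, the lanosterol demethylase, by -0.10 (0.486). LSS read 9.22, 9.20 and 9.17 with estradiol and 9.12, 9.21 and 9.13 with vehicle, overlapping, and TM7SF2, NSDHL, EBP and DHCR7 differed by -0.02 to 0.07.

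Among the regulators, INSIG1 (probe set 8137526) read 8.82, 8.93 and 8.71 with estradiol and 9.10, 9.08 and 9.17 with vehicle. The estradiol arrays were all lower, by 0.30 ± 0.07 log2 on average, or 1.23-fold (adjusted p = 0.0333 in limma). The call was lost without any 1 vehicle array, estradiol replicate 1 or 3, or SRC-1 siRNA estradiol replicate 2 (adjusted p up to 0.134), and with median centring (0.0664). SREBF2, which encodes SREBP-2, read 9.41, 9.41 and 9.26 with estradiol and 9.44, 9.39 and 9.40 with vehicle. SREBF1 read 8.97, 8.91 and 8.93 with estradiol and 8.98, 8.96 and 9.05 with vehicle. SCAP read 9.71, 9.68 and 9.79 with estradiol and 9.71, 9.77 and 9.75 with vehicle. For these 3 genes the groups overlapped, and the differences were -0.05 for SREBF2, -0.06 for SREBF1 and -0.02 for SCAP. INSIG2 read 7.37, 7.22 and 7.52 with estradiol and 7.48, 7.34 and 7.40 with vehicle, a difference of -0.04.

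ELOVL6 was the member that rose. Its probe set 8102342 read 9.05, 8.98 and 9.19 with estradiol and 8.70, 8.69 and 8.77 with vehicle. Every estradiol array exceeded every vehicle array, and the difference was 0.36 ± 0.06 log2 (adjusted p = 0.00966 in limma). This call held in all 12 fits that left out 1 array. The other fatty acid enzymes did not follow it: ACLY, which supplies cytosolic acetyl-CoA, differed by -0.03, FASN, the fatty acid synthase, by -0.06 and SCD, the stearoyl desaturase, by -0.10. STARD4, a cholesterol carrier, differed by -0.19 (adjusted p = 0.194) without overlap between groups, and NPC1, which exports cholesterol from lysosomes, by -0.03.

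In total 10 of 28 members had groups that did not overlap, against 21% of all probe sets. Members with a CCAAT box had a median difference of -0.07 (12 of 16 below 0), and those without 1 had a median of -0.04 (8 of 9 below 0). ACAT2, SQLE and FASN are in neither set, as no promoter was found for them. ELOVL6 was placed by its window inside the gene.

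**Figure D2:**
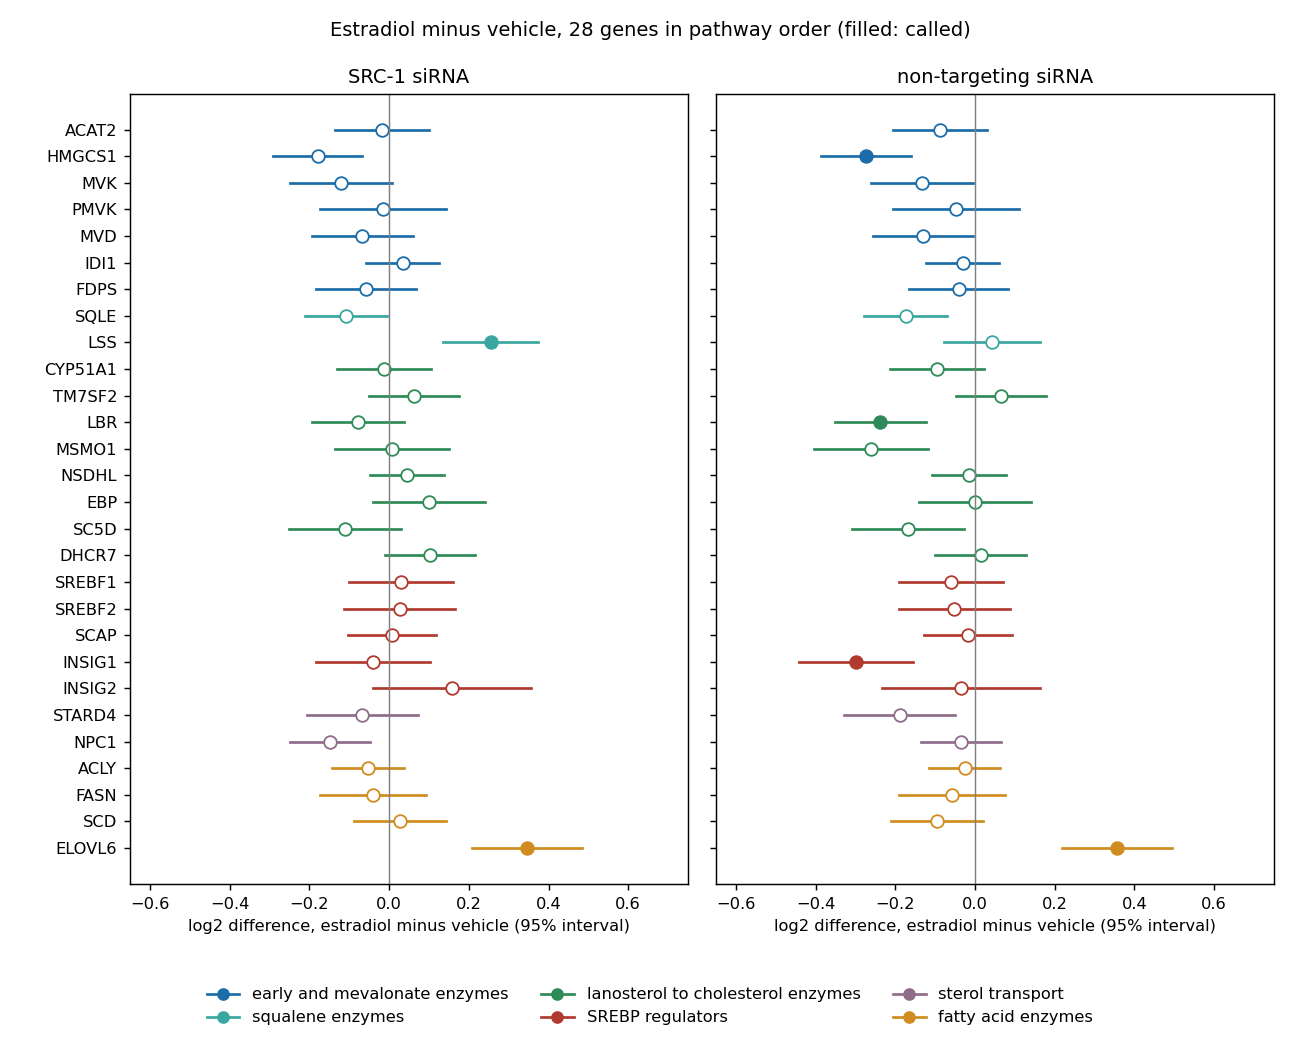
Estradiol minus vehicle in log2 for each member in pathway order, with 95% intervals, for SRC-1 and non-targeting siRNA (filled points were called). ELOVL6 lies near 0.35 with both siRNAs, and INSIG1 at -0.04 with SRC-1 siRNA and -0.30 with non-targeting siRNA.

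Estradiol with SRC-1 siRNA gave 2 called members, both higher: ELOVL6 at 1.27-fold and LSS, which closes squalene epoxide into lanosterol, at 1.19-fold. This was 7.14% of the members, while 6.88% of all probe sets were called (4.49% higher, 2.39% lower), so the share was near the background. ELOVL6 read 9.38, 9.21 and 9.24 log2 with estradiol and 8.95, 8.93 and 8.91 with vehicle. The groups did not overlap, the difference was 0.35 ± 0.06 (adjusted p = 0.00733 in limma), and the call held in all 12 fits that left out 1 array.

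LSS (probe set 8070961) read 9.43, 9.50 and 9.46 with estradiol and 9.32, 9.13 and 9.17 with vehicle, without overlap. The difference was 0.25 ± 0.05 (adjusted p = 0.0176 in limma). It was not called without estradiol replicate 2 (adjusted p = 0.0553) or 3 (0.0521) or vehicle replicate 2 (0.0772) or 3 (0.0682).

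HMGCS1 read 11.99, 11.95 and 12.005 with estradiol and 12.20, 12.09 and 12.19 with vehicle. The groups again did not overlap, and the difference of -0.18 had an adjusted p of 0.0605 in limma. INSIG1 read 8.99, 8.92 and 8.90 with estradiol and 9.02, 8.87 and 9.05 with vehicle, which overlapped, with a difference of -0.04. LBR read 9.95, 9.90 and 9.95 with estradiol and 9.96, 10.04 and 10.04 with vehicle, a difference of -0.08 without overlap. MSMO1 read 11.59, 11.55 and 11.72 with estradiol and 11.71, 11.58 and 11.56 with vehicle, overlapping, with a difference of 0.01. SQLE differed by -0.11. Of 28 members 15 lay below 0, against 55.3% of all probe sets, and the members' median of -0.01 stood beside -0.02 for all. Groups did not overlap for 10 members, against 25.8% of all probe sets.

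The difference between these estradiol effects (SRC-1 siRNA minus non-targeting siRNA) asks whether the response depends on SRC-1. In limma 0 of 28 members and 0% of all 29094 probe sets were called, with 3 members and 2102 probe sets at an unadjusted p under 0.05. The 3 members were MSMO1, with a difference of 0.27 (95% interval 0.06 to 0.47, adjusted p = 0.605), INSIG1, with 0.26 (0.06 to 0.46, adjusted p = 0.626), and LSS, with 0.21 (0.04 to 0.38, adjusted p = 0.646). Both MSMO1 and INSIG1 were among the lowest with non-targeting siRNA, and those arrays enter the difference.

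The interval for HMGCS1 ran from -0.06 to 0.25 around 0.09, so an equal decrease and a smaller one with SRC-1 siRNA both lie inside it. The interval for LBR ran from -0.00 to 0.32 around 0.16, and that for ELOVL6 from -0.20 to 0.19 around -0.01. For SREBF1 the difference was 0.09 (-0.09 to 0.28), for SREBF2 0.08 (-0.12 to 0.28), for SCAP 0.02 (-0.13 to 0.18) and for INSIG2 0.19 (-0.09 to 0.47). Across members 5 of 28 differences were below 0, against 50.9% of all probe sets, and the median was 0.07 against -0.00. The smaller NCOA1 depletion under estradiol stands beside all of these intervals.

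**Figure D3:**
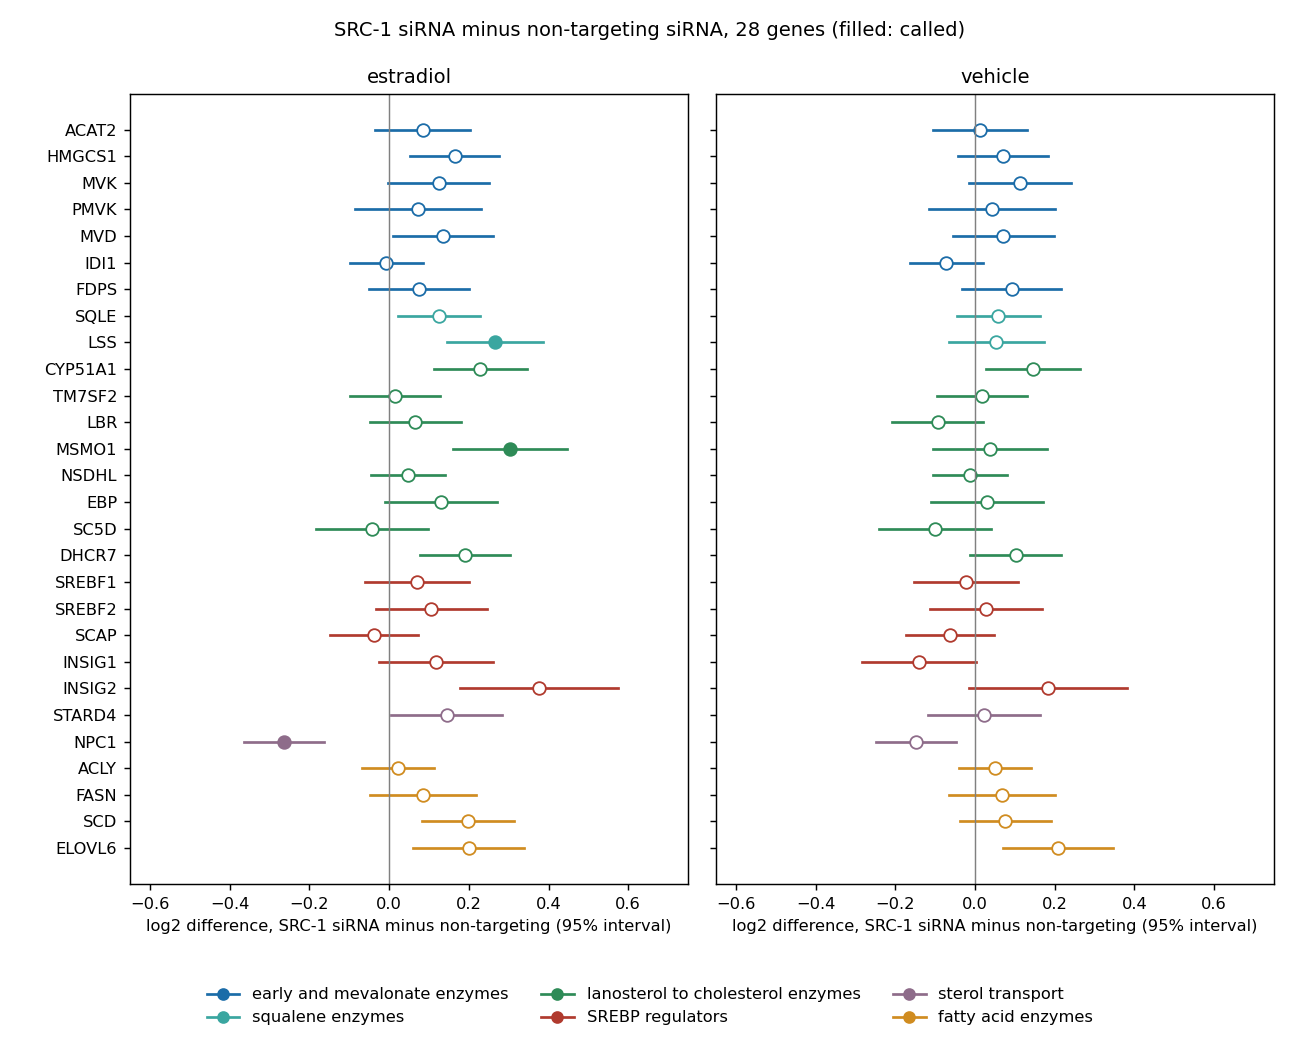
SRC-1 siRNA minus non-targeting siRNA in log2 for each member in pathway order, with 95% intervals, under estradiol and under vehicle (filled points were called). NPC1 lies at -0.26 under estradiol and -0.15 under vehicle, while 24 of 28 members lie above 0 under estradiol.

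SRC-1 depletion under estradiol shares its arrays with the estradiol comparisons, so the values are given side by side and not as further support. MSMO1 and LSS were higher with SRC-1 siRNA, by 1.23-fold and 1.2-fold, and NPC1 was 1.2-fold lower. These 3 are 10.7% of the members, while 1.8% of all probe sets were called (0.732% higher, 1.07% lower). With the lowest 40% of probe sets left out, 7 members were called, against 6.4% of the probe sets kept. NPC1 (probe set 8022531) read 11.39, 11.40 and 11.37 log2 with SRC-1 siRNA and 11.61, 11.71 and 11.62 with non-targeting siRNA. All SRC-1 siRNA arrays were lower, with a difference of -0.26 ± 0.05 (adjusted p = 0.015 in limma). The call was lost without SRC-1 siRNA replicate 1 (adjusted p = 0.0549) or 3 (0.0619), or non-targeting replicate 2 (0.0693).

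MSMO1 read 11.59, 11.55 and 11.72 with SRC-1 siRNA and 11.37, 11.32 and 11.27 with non-targeting siRNA. LSS read 9.43, 9.50 and 9.46 with SRC-1 siRNA and 9.22, 9.20 and 9.17 with non-targeting siRNA. Neither gene overlapped between groups, with differences of 0.30 ± 0.07 for MSMO1 (adjusted p = 0.0416 in limma) and 0.27 ± 0.05 for LSS. The adjusted p for LSS was 0.0358 in limma. Both calls held without SRC-1 siRNA vehicle replicate 1 or non-targeting vehicle replicate 2, and that of LSS also without SRC-1 siRNA vehicle replicate 2. In the remaining fits that left out 1 array neither was called (adjusted p up to 0.141 for MSMO1 and 0.113 for LSS). Median centring ended both calls, with an adjusted p of 0.0606 for MSMO1 and 0.0558 for LSS.

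INSIG2 (probe set 8044766) read 7.91, 7.73 and 7.59 with SRC-1 siRNA and 7.37, 7.22 and 7.52 with non-targeting siRNA, a difference of 0.38 that was not called (adjusted p = 0.0652 in limma). CYP51A1 differed by 0.23 (adjusted p = 0.0585), SCD by 0.20 (0.0899) and DHCR7 by 0.19 (0.0988), all without overlap. In all, 4 of 28 members had a difference below 0, against 52.5% of all probe sets, and the median was 0.11 against -0.01. Groups did not overlap for 10 members, against 22.3% of all probe sets.

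Under vehicle, SRC-1 siRNA gave 0 called members in limma, while 1.21% of all probe sets were called (0.265% higher, 0.945% lower). An unadjusted p under 0.05 was reached by 3 of 28 members and by 3691 of all 29094 probe sets, so the members did not stand out. NPC1 read 11.49, 11.50 and 11.60 with SRC-1 siRNA and 11.69, 11.65 and 11.71 with non-targeting siRNA. These groups did not overlap, and the difference of -0.15 had an adjusted p of 0.174. It was called with a trended and robust variance (adjusted p = 0.0267). Groups of 12 members did not overlap, against 18.4% of all probe sets, and 8 of 28 lay below 0, against 49.4%. The median was 0.04 against 0.00 for all.

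Averaging over the other factor narrows the errors. Estradiol averaged over both siRNAs gave 6 called members (21.4%), while 9.96% of all probe sets were called (6.11% higher, 3.85% lower). With the lowest 40% of probe sets left out, 19.2% of those kept were called. Of 28 members 20 lay below 0, against 56.6% of all probe sets. ELOVL6 was higher by 0.35 ± 0.04 log2 and LSS by 0.15 ± 0.04, and HMGCS1 was lower by 1.17-fold (-0.23 ± 0.04, adjusted p = 0.00219 in limma). LBR (-0.16 ± 0.04), INSIG1 (-0.17 ± 0.05) and SQLE (-0.14 ± 0.03) were also lower. SQLE (probe set 8148280) read 11.36, 11.43 and 11.46 with SRC-1 siRNA and estradiol, 11.56, 11.51 and 11.52 with SRC-1 siRNA and vehicle, 11.36, 11.29 and 11.23 with non-targeting siRNA and estradiol, and 11.43, 11.50 and 11.47 with non-targeting siRNA and vehicle. Within either siRNA all its estradiol arrays were below all its vehicle arrays.

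The calls of HMGCS1 (adjusted p at most 0.00778 in limma) and ELOVL6 (at most 0.00191) held in all 12 fits that left out 1 array. SQLE lost its call without SRC-1 siRNA estradiol replicate 1, non-targeting estradiol replicate 3 or non-targeting vehicle replicate 2 (adjusted p up to 0.0555). LBR lost it without SRC-1 siRNA vehicle replicate 2 or 3 (up to 0.0502). INSIG1 kept it only without SRC-1 siRNA vehicle replicate 2 or non-targeting estradiol replicate 2 (otherwise up to 0.0929). LSS kept it only without SRC-1 siRNA vehicle replicate 1 or non-targeting vehicle replicate 2 (otherwise up to 0.0771).

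SRC-1 siRNA averaged over both treatments gave 6 called members (21.4%), while 5.1% of all probe sets were called. With the lowest 40% of probe sets left out, 13.4% of those kept were called. Of the 6 members 5 were higher, against 2.05% of all probe sets. NPC1 was lower by 0.21 ± 0.03 log2 (adjusted p = 0.00408 in limma), against 3.05% called lower. INSIG2 was higher by 0.28 ± 0.06, ELOVL6 by 0.20 ± 0.04, CYP51A1 by 0.19 ± 0.04, LSS by 0.16 ± 0.04 and DHCR7, which makes cholesterol from its last precursor in one branch, by 0.15 ± 0.04. In all, 6 of 28 members lay below 0, against 50.9% of all probe sets, with a median of 0.08 against -0.00.

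INSIG2 under vehicle read 7.65, 7.51 and 7.60 with SRC-1 siRNA and 7.48, 7.34 and 7.40 with non-targeting siRNA, so its groups did not overlap under either treatment. CYP51A1 (probe set 8180268) read 10.81, 10.65 and 10.68 with SRC-1 siRNA and estradiol, 10.71, 10.68 and 10.79 with SRC-1 siRNA and vehicle, 10.52, 10.52 and 10.42 with non-targeting siRNA and estradiol, and 10.56, 10.60 and 10.58 with non-targeting siRNA and vehicle. Every SRC-1 siRNA array of CYP51A1 was above every non-targeting array. A second CYP51A1 probe set averaged 0.16 higher with SRC-1 siRNA and was not called (adjusted p = 0.231 in limma). DHCR7 (probe set 7950067) read 11.40, 11.33 and 11.33 with SRC-1 siRNA and estradiol, 11.28, 11.23 and 11.24 with SRC-1 siRNA and vehicle, 11.25, 11.18 and 11.05 with non-targeting siRNA and estradiol, and 11.16, 11.13 and 11.16 with non-targeting siRNA and vehicle. Its SRC-1 siRNA arrays were higher within each treatment.

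The calls of NPC1 (adjusted p at most 0.0147 in limma) and CYP51A1 (at most 0.0467) held in all 12 fits that left out 1 array. ELOVL6 lost its call without replicate 1 of any 1 group, or replicate 2 of either non-targeting group (up to 0.0621). INSIG2 kept it only without SRC-1 siRNA estradiol replicate 3 or vehicle replicate 2, or non-targeting estradiol replicate 3 or vehicle replicate 1 (otherwise up to 0.0713). LSS kept it only without vehicle replicate 2 of either siRNA (otherwise up to 0.0935), and DHCR7 only without non-targeting estradiol replicate 1 (otherwise up to 0.103). SREBF1, SREBF2 and SCAP were not called in any comparison. SREBF1 read 9.13, 8.97 and 8.91 with SRC-1 siRNA and estradiol and 9.04, 8.98 and 8.91 with SRC-1 siRNA and vehicle. SREBF2 read 9.57, 9.35 and 9.47 on the estradiol arrays and 9.51, 9.41 and 9.39 on the vehicle arrays with SRC-1 siRNA. SCAP read 9.70, 9.76 and 9.61 on those estradiol arrays and 9.64, 9.73 and 9.68 on those vehicle arrays, overlapping like the other regulators.

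**Figure D4:**
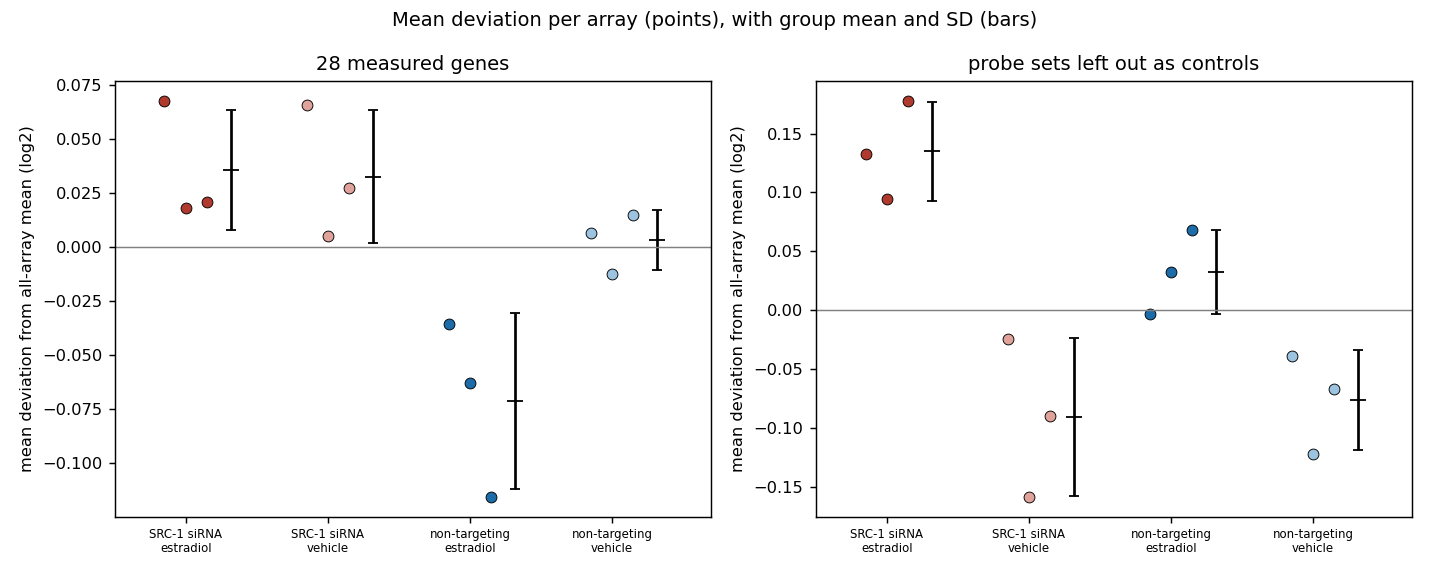
Mean deviation of the 28 measured members and of the control probe sets from their average over the 12 arrays, in log2, per array (points), with group means and SD (bars; n = 3 each). The members lie between -0.116 and -0.036 with non-targeting siRNA and estradiol, below the other 9 arrays, and the control probe sets between 0.094 and 0.178 with SRC-1 siRNA and estradiol.

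As a whole the measured members lay 0.018 to 0.068 log2 above their average on the arrays with SRC-1 siRNA and estradiol, and 0.005 to 0.066 above it with SRC-1 siRNA and vehicle. With non-targeting siRNA they lay between -0.116 and -0.036 under estradiol and between -0.012 and 0.015 under vehicle. The 3 non-targeting arrays with estradiol were thus the lowest of the 12. The 17 sterol enzymes gave -0.146 to -0.040 on those arrays. These are small shifts, and the members are not independent of each other.

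Genes next to the pathway were read from 5 lists with 44 measured of 49 genes. With non-targeting siRNA estradiol changed 2 of the 44 (4.55%, against 2.73% of all probe sets): ABCA1, which exports cholesterol, fell by 0.29 ± 0.06 log2 (adjusted p = 0.0215 in limma), and GRAMD1C, of a family that moves sterol between membranes, rose by 0.55 ± 0.06 (adjusted p = 0.000575). With SRC-1 siRNA 3 of 44 changed (6.82%, near the 6.88% of all probe sets): ABCA1 (-0.24 ± 0.06), GRAMD1C (0.67 ± 0.06) and FABP3, a fatty acid binding protein (0.42 ± 0.11). ABCA1 averaged 6.42 ± 0.09 with SRC-1 siRNA and estradiol, 6.66 ± 0.06 with SRC-1 siRNA and vehicle, 6.40 ± 0.09 with non-targeting siRNA and estradiol and 6.69 ± 0.04 with non-targeting siRNA and vehicle (SD, n = 3 each).

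SRC-1 siRNA lowered 3 of the 44 (6.82%) under each treatment, against 1.07% of all probe sets lower under estradiol and 0.945% under vehicle. They were the same 3 genes: PDSS1, PGGT1B and GRAMD1B. GRAMD1B, another sterol mover, averaged 8.63 ± 0.10 with SRC-1 siRNA and estradiol, 8.81 ± 0.02 with SRC-1 siRNA and vehicle, 9.60 ± 0.15 with non-targeting siRNA and estradiol and 9.52 ± 0.03 with non-targeting siRNA and vehicle (SD, n = 3 each). It fell by 0.97 ± 0.07 log2 under estradiol (adjusted p = 6.33e-05 in limma) and by 0.71 ± 0.07 under vehicle (adjusted p = 0.000732). PGGT1B, a subunit of the enzyme that attaches geranylgeranyl groups to proteins, fell by 0.56 ± 0.05 under estradiol and by 0.70 ± 0.05 under vehicle. PDSS1, which builds the ubiquinone side chain, fell by 0.35 ± 0.06 under estradiol and by 0.36 ± 0.06 under vehicle. None of the 7 measured genes of SREBP processing and sterol-regulated degradation was called in any comparison, the difference included. Averaged over siRNAs, estradiol also lowered ABCG1, another sterol exporter, by 0.26 ± 0.06 (adjusted p = 0.0165 in limma). With the control probe set covariate that difference was -0.01. Of the members called in this comparison, HMGCS1 was then at -0.29 (-0.23 without it), INSIG1 at -0.23 (-0.17) and ELOVL6 at 0.28 (0.35). LSS was at 0.10 (0.15), SQLE at -0.12 (-0.14) and LBR at -0.08 (-0.16). None of these 6 members was called with the covariate. Averaged over treatments, SRC-1 siRNA called 7 of the 44 (15.9%, against 5.1% of all probe sets), with LIPA, the lysosomal lipase, higher by 0.21 ± 0.05, LPIN1, a phosphatidate phosphatase, higher by 0.15 ± 0.03, and ME1 (malic enzyme) and PANK3 (a pantothenate kinase) at -0.19 ± 0.05 and -0.14 ± 0.03. Of 12 fits that left out 1 array, LIPA lost its call in 6, LPIN1 in 9, ME1 in 8 and PANK3 in 3 (adjusted p up to 0.0833). The difference of estradiol effects called 0 of the 44 in limma, with 1 at an unadjusted p under 0.05, against 2102 of all 29094 probe sets.

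The calls of GRAMD1C, GRAMD1B and PGGT1B held in all 12 fits that left out 1 array. ABCA1 lost its call in 4 of them with non-targeting siRNA (without estradiol replicate 1 or 3, or vehicle replicate 2 or 3; adjusted p up to 0.0857 in limma). With SRC-1 siRNA it lost its call in 5 (without estradiol replicate 1 or 3, or any vehicle array; up to 0.113). FABP3 kept its call only without non-targeting estradiol replicate 1 or 2 or vehicle replicate 3 (otherwise up to 0.151). PDSS1 lost it under estradiol without SRC-1 siRNA replicate 1 or non-targeting replicate 2 (up to 0.0548). Under vehicle PDSS1 lost it without SRC-1 siRNA replicate 2 or non-targeting replicate 2 or 3 (up to 0.0553).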

How the data were processed

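RNA of 12 samples, in 4 groups of 3 biological replicates as labelled, was measured on arrays. The authors deposited log2 expression values, 1 per probe set and array; per the submitters' processing notes and the series' design text the authors used affy and limma, with versions, background correction and normalization not given in the sources used here. Of 33297 probe sets, 4203 with identifiers below 7896740 were taken as controls, by inference from the identifiers, and left out. In R 4.3.3, limma 3.58.1 fitted all 12 arrays with a mean for each group (empirical Bayes, two-sided), and 7 contrasts were read. P-values were adjusted over all 29094 tested probe sets. The test was tried on simulated data. Arrays have no depth; their number limits the precision.

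The members and lists were chosen with earlier results of these data known. Every array's value is given for members called in at least 1 contrast and for INSIG1, INSIG2, SREBF1, SREBF2, SCAP and HMGCS1; the others are given by means, ranges and counts. Of other lists up to 3 called genes per list and contrast, with the smallest p, are named. Alternatives covered scaling, variance, weights, a replicate block, filters, thresholds, a control probe set covariate, the arrays fitted and each array left out.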

Additional observations from a re-analysis of the deposited data

Results flagged for a closer look

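The control probe sets, which entered no comparison, carried a signal that moved with treatment. Their mean deviation was 0.226 log2 higher with estradiol than with vehicle among SRC-1 siRNA arrays, and 0.109 log2 higher with estradiol than with vehicle among non-targeting arrays. The group means were 0.135 ± 0.042 with SRC-1 siRNA and estradiol, -0.091 ± 0.067 with SRC-1 siRNA and vehicle, 0.032 ± 0.036 with non-targeting siRNA and estradiol and -0.076 ± 0.043 with non-targeting siRNA and vehicle (SD, n = 3 each). With 3 arrays a group, no single array could be tested as lying apart.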

How the results depend on the processing

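No called fold change of a member reversed under any alternative run. The counts of called members moved by more than 1.5 times as follows. For estradiol with non-targeting siRNA (4), the counts were 2 with median centring (HMGCS1 and ELOVL6), 1 with only the arrays compared (ELOVL6) and 1 at an adjusted p under 0.01, and 1 to 4 without single arrays. For estradiol with SRC-1 siRNA (2), they were 4 without the lowest 40% of probe sets, 4 with a trended and robust variance, 1 with only the arrays compared, 1 at an adjusted p under 0.01 and 1 at a fold of at least 1.2, and 1 to 2 without single arrays. For SRC-1 siRNA under vehicle (0) the trended and robust variance gave 1, and single arrays left out gave 0. For SRC-1 siRNA under estradiol (3), they were 7 without the lowest 40%, 1 with median centring (NPC1), 8 with the trended and robust variance, 0 with only the arrays compared and 0 at an adjusted p under 0.01, and 0 to 3 without single arrays. For estradiol averaged (6), they were 3 with median centring (HMGCS1, LSS and ELOVL6), 10 with the trended and robust variance, 2 at an adjusted p under 0.01 and 1 at a fold of at least 1.2, and 3 to 6 without single arrays. For SRC-1 siRNA averaged (6), they were 10 with the trended and robust variance, 1 at an adjusted p under 0.01 and 1 at a fold of at least 1.2, and 2 to 5 without single arrays. The control probe set covariate left 0 called members in every comparison but SRC-1 siRNA averaged, where NPC1 remained, the 1 left (adjusted p = 0.0166 in limma). It separates the treatments and, under estradiol, the siRNAs. Standard errors rose with it for nearly all members, except for SRC-1 siRNA under vehicle. There they changed little or fell (for MVK 0.048 with the covariate and 0.058 without). Averaged knockdown differences stayed close, at 0.19 for CYP51A1 and 0.15 for DHCR7 with and without it. With a replicate block, estradiol with non-targeting siRNA called 2 members, HMGCS1 and ELOVL6, so the calls of INSIG1 (adjusted p = 0.0645 in limma) and LBR (0.0583) ended. The block also ended those of LSS for SRC-1 siRNA under estradiol (0.0571) and averaged (0.0567), and of INSIG1 for estradiol averaged (0.0594). Same-numbered arrays correlated in their deviations at -0.05 to 0.27 over 12 compared pairs, 6 of them over 0.1. In most of these pairs the same-numbered array was also the best correlated of the 3 in the other group. The numbers were not taken as pairs. Replicate 1 did have the lowest array median in every group. These medians were 6.865 (estradiol) and 6.858 (vehicle) with SRC-1 siRNA, and 6.859 (estradiol) and 6.865 (vehicle) with non-targeting siRNA. What same-numbered arrays share was not tested. The difference of estradiol effects called 0 members under all alternatives run. Median centring turned the members' median for estradiol with SRC-1 siRNA to 0.01, against -0.01 as deposited. Apart from the filters, thresholds and fewer arrays, the cause of these moves was not tested. Signal over background was not measured. With 3 arrays a group, the members' 95% intervals had a median half-width of 0.12 log2 in the comparisons of 2 groups. It was 0.09 in the averaged comparisons and 0.17 for the difference of estradiol effects.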
